A study of Mus musculus with 12 samples.

Results

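Collagens are the scaffold proteins of connective tissue and basement membranes, and the 44 genes described here are those of the 23406 in the deposited table whose gene name is Col, a number, the letter a and a number. They comprised 11 fibrillar chains, 6 type IV chains, 6 type VI chains, 9 fibril-associated (FACIT) chains, 3 short chains, 4 transmembrane chains, 2 multiplexins and 3 chains of other kinds. Their RNA was measured by RNA sequencing of total RNA from passage 2 mammospheres, clusters that mammary epithelial cells grow into when kept from attaching. The spheres came from C57BL/6J mice in 4 groups of 3 libraries: 12-month p66Shc knock-out (KO, p66-/-), 12-month wild type (WT), 2-month KO and 2-month WT, so that age can be compared within each genotype and genotype at each age. p66Shc is the longest isoform of the adaptor gene Shc1, and the KO mice carry a constitutional deletion of it. No treatment or cell sort is given in the labels, and the 4 groups share the strain and the passage. The design text gives 3 mice for an age and genotype, but the labels do not tie a library to a mouse, so p-values here measure the spread between libraries, which may in part be technical.

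A collagen is a trimer of chains wound into a triple helix, with a glycine at every repeat. Fibrillar collagens are secreted with propeptides, trimmed outside the cell and laid side by side into banded fibrils, mostly by fibroblasts. Type IV collagen forms the sheet of the basement membrane on which mammary epithelium and blood vessels rest, and both epithelial and stromal cells can make it. Type VI collagen forms beaded filaments between the basement membrane and the stroma, FACIT collagens coat fibrils, short chains form hexagonal nets, transmembrane collagens stay anchored in the cell surface, and the multiplexins types XV and XVIII sit at basement membranes and release endostatin-like fragments.

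Libraries held 31845169 to 109079737 reads in genes, and 1 read stood for 0.00967 to 0.0286 counts per 1000000 reads (CPM, the deposited scaled unit). Values are the deposited CPM, fold changes are on the log2(CPM + 0.5) scale from limma with their standard error (SE), and a gene is called at a Benjamini-Hochberg adjusted p under 0.05 over the 13961 genes that averaged 0.5 CPM or more. Shc1, the gene that encodes p66Shc beside shorter isoforms, had 170.0, 162 and 178 CPM in 12-month KO and 219.6, 209 and 203 in 12-month WT. Shc1 at 2 months had 208, 209 and 208 CPM in KO and 266, 311 and 309.7 in WT. It was lower in KO at both ages without overlap (-0.31 ± 0.06 SE, adjusted p = 0.000593 at 12 months, -0.50 ± 0.06 SE, adjusted p = 0.000133 at 2 months), and a count per gene does not single out the p66 isoform. Luminal epithelial markers (10 genes) summed to 465 to 489 CPM in 12-month KO, 3712 to 3874 in 12-month WT and, at 2 months, 454 to 529 in KO and 325 to 398 in WT. Fibroblast markers without collagens (10 genes) summed to 6394 to 7033, 2970.4 to 3334, 4804 to 4942 and 5904 to 6160.3 CPM in the same order of groups. RNA of stromal as well as epithelial marker genes was thus present in spheres labelled as mammary, none of these genes was at 0 in every library, and in bulk RNA fewer cells of a type and less RNA per cell cannot be told apart. Replicate 1 of 2-month WT and replicate 1 of 12-month KO stood apart in base composition: within their groups, genes of high GC content were low in them (correlation across genes between a gene's deviation and its transcript GC content, -0.641 and -0.439), and the median deviation of the collagen genes with at least 50 CPM was -0.22 and -0.18 log2. Replicate 2 of 2-month WT and replicate 3 of 12-month KO leaned the other way (0.614 and 0.475). In every group this correlation was negative for replicate 1 and positive for replicate 3. The longest transcripts of the collagen genes ran from 45.87% to 62.9% GC. Values without the first libraries of 2-month WT and 12-month KO, or with the GC trend of each library removed, are given where they changed a call.

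Of the 44 genes, 38 reached a mean of 0.5 CPM and were tested, and 17 reached a mean of 50 CPM. Of the 38, 4 reached 0.5 CPM only through their highest group, Col6a5 through 12-month KO and Col8a2, Col11a2 and Col20a1 through 12-month WT, so that these had to differ, and their values are given without a test. Collagen reads made up 1.97% to 2.36% of all reads in 12-month KO, 1.97% to 2.11% in 12-month WT and, at 2 months, 2.74% to 2.88% in KO and 2.203% to 2.77% in WT. Per kilobase of transcript, which allows levels of different genes to be compared, Col4a1 was the most abundant chain with a mean of 878 CPM per kb over the 12 libraries, followed by Col3a1 with 688, Col4a2 with 395, Col6a3 with 344, Col5a2 with 339, Col6a1 with 293 and Col1a2 with 228 CPM per kb. The order differed between groups, since in 12-month KO Col6a3 (487) and Col4a2 (455) stood above Col3a1 (446), in 12-month WT Col6a3 (201) stood below Col5a2 (275), and in 2-month KO Col4a1 (912) and Col3a1 (907) were close. Col1a1, whose product is needed in every type I collagen molecule, had 25.5 CPM per kb. Fibrillar chains held 31.0% to 32.2% of the summed collagen CPM per kb in 12-month KO, against 42.2% to 43.9% in 12-month WT and, at 2 months, 42.4% to 44.4% in KO and 39.7% to 42.3% in WT. Type VI chains held 23.9% to 26.3% in 12-month KO, 13.0% to 14.0% in 12-month WT and, at 2 months, 19.8% to 21.2% in KO and 19.6% to 22.3% in WT. Collagen RNA thus held its lowest fibrillar share in 12-month KO and its lowest type VI share in 12-month WT, in both cases without overlap with the other groups.

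**Figure D1:**
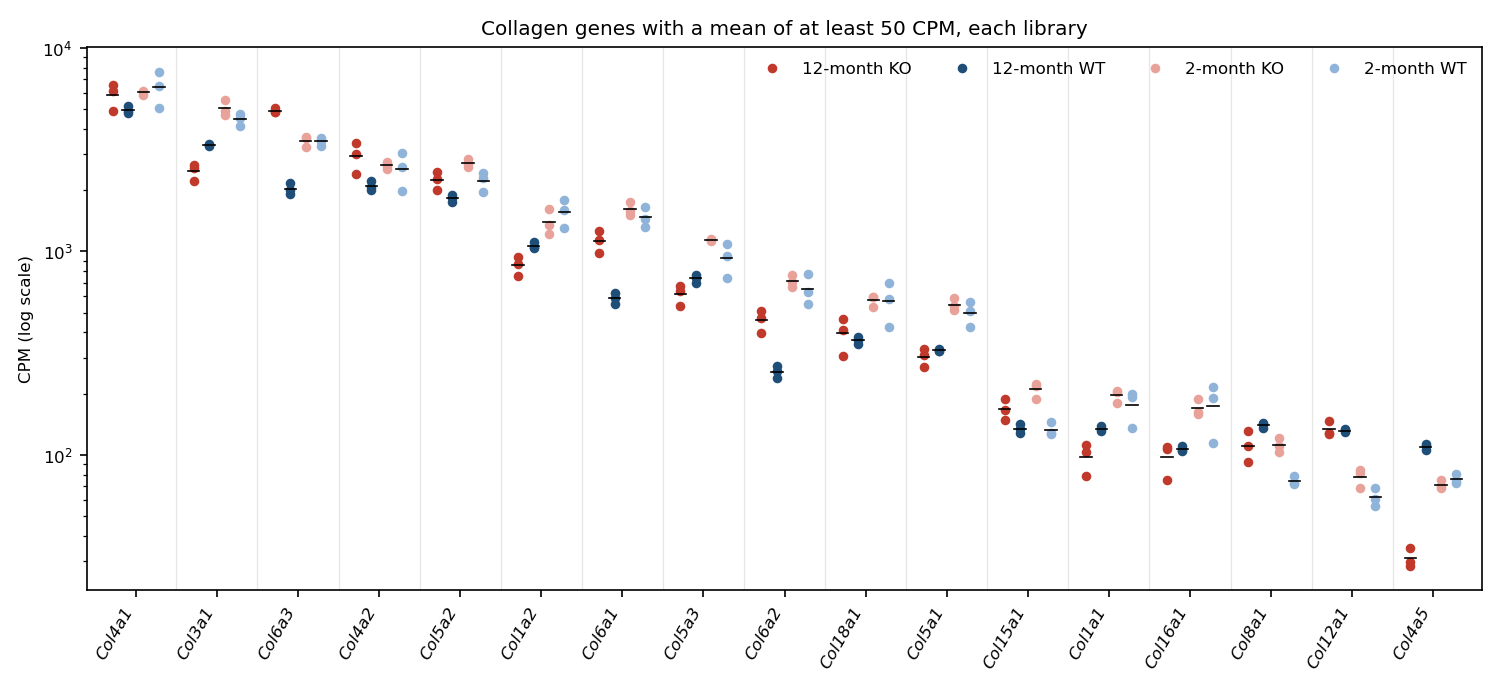
Deposited level in CPM (log scale) of the 17 collagen genes that averaged 50 CPM or more; each point is 1 library and each bar a group mean. Col6a3 in 12-month KO (4817 to 5081 CPM) and Col4a5 in 12-month WT (105 to 113 CPM) lie above their other groups.

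From 2 to 12 months, collagen RNA changed in both genotypes. In KO, 10 of the 38 tested genes rose with age and 20 fell, and of all genes 67% were called, 32.9% higher and 34.2% lower. In WT, 14 rose and 18 fell, against 58% of all genes called, 22.3% higher and 35.6% lower. Between genotypes at 12 months, 11 genes were higher and 18 lower in KO than in WT (all genes 70.2%, 31.3% higher and 38.9% lower). At 2 months 7 were higher and 2 lower in KO (all genes 16.1%, 1.86% higher and 14.2% lower). At 2 months 4 were higher without replicate 3 of 2-month WT or without replicate 1 of 2-month KO, and 18 with the GC trend removed (all genes then 724 higher and 1315 lower, against 259 and 1986). The age effect itself differed between genotypes for 23 genes, more positive in KO for 6 and more negative for 17 (all genes 57.7%, 31.4% and 26.2%). The median change of the 38 genes was -0.30 with age in KO and -0.12 with age in WT, -0.21 between genotypes at 12 months and 0.08 at 2 months, against all-gene medians of -0.02, -0.08, -0.07 and -0.09. Groups did not overlap for 29 of the 38 genes with age in KO (72.9% of all genes), for 30 with age in WT (62.3%), for 30 between genotypes at 12 months (73.9%) and for 14 at 2 months (32.1%). These comparisons share libraries with each other. Over the 34 genes left after those 4, 9 were higher and 20 lower with age in KO, 11 and 18 with age in WT, 10 and 15 at 12 months, 7 and 2 at 2 months, and 6 and 16 for the difference of the age effects. With no scaling beyond the total count, the split with age in WT was 16 higher and 13 lower (all genes 4608 and 3150) and that between genotypes at 12 months 7 higher and 21 lower (all genes 3007 and 7325). By edgeR's quasi-likelihood test on the recovered reads, with TMM computed anew, the split with age in WT was likewise 16 higher and 13 lower (all genes 3898 higher and 3766 lower, against 3120 and 4971 by limma), and at 2 months all genes split into 474 higher and 940 lower in KO, against 259 and 1986 by limma. With the GC trend removed, 15 collagen genes were higher and 19 lower with age in KO (all genes 5189 and 4777), and 16 were higher and 13 lower in KO at 12 months (all genes 4877 and 5235).

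**Figure D2:**
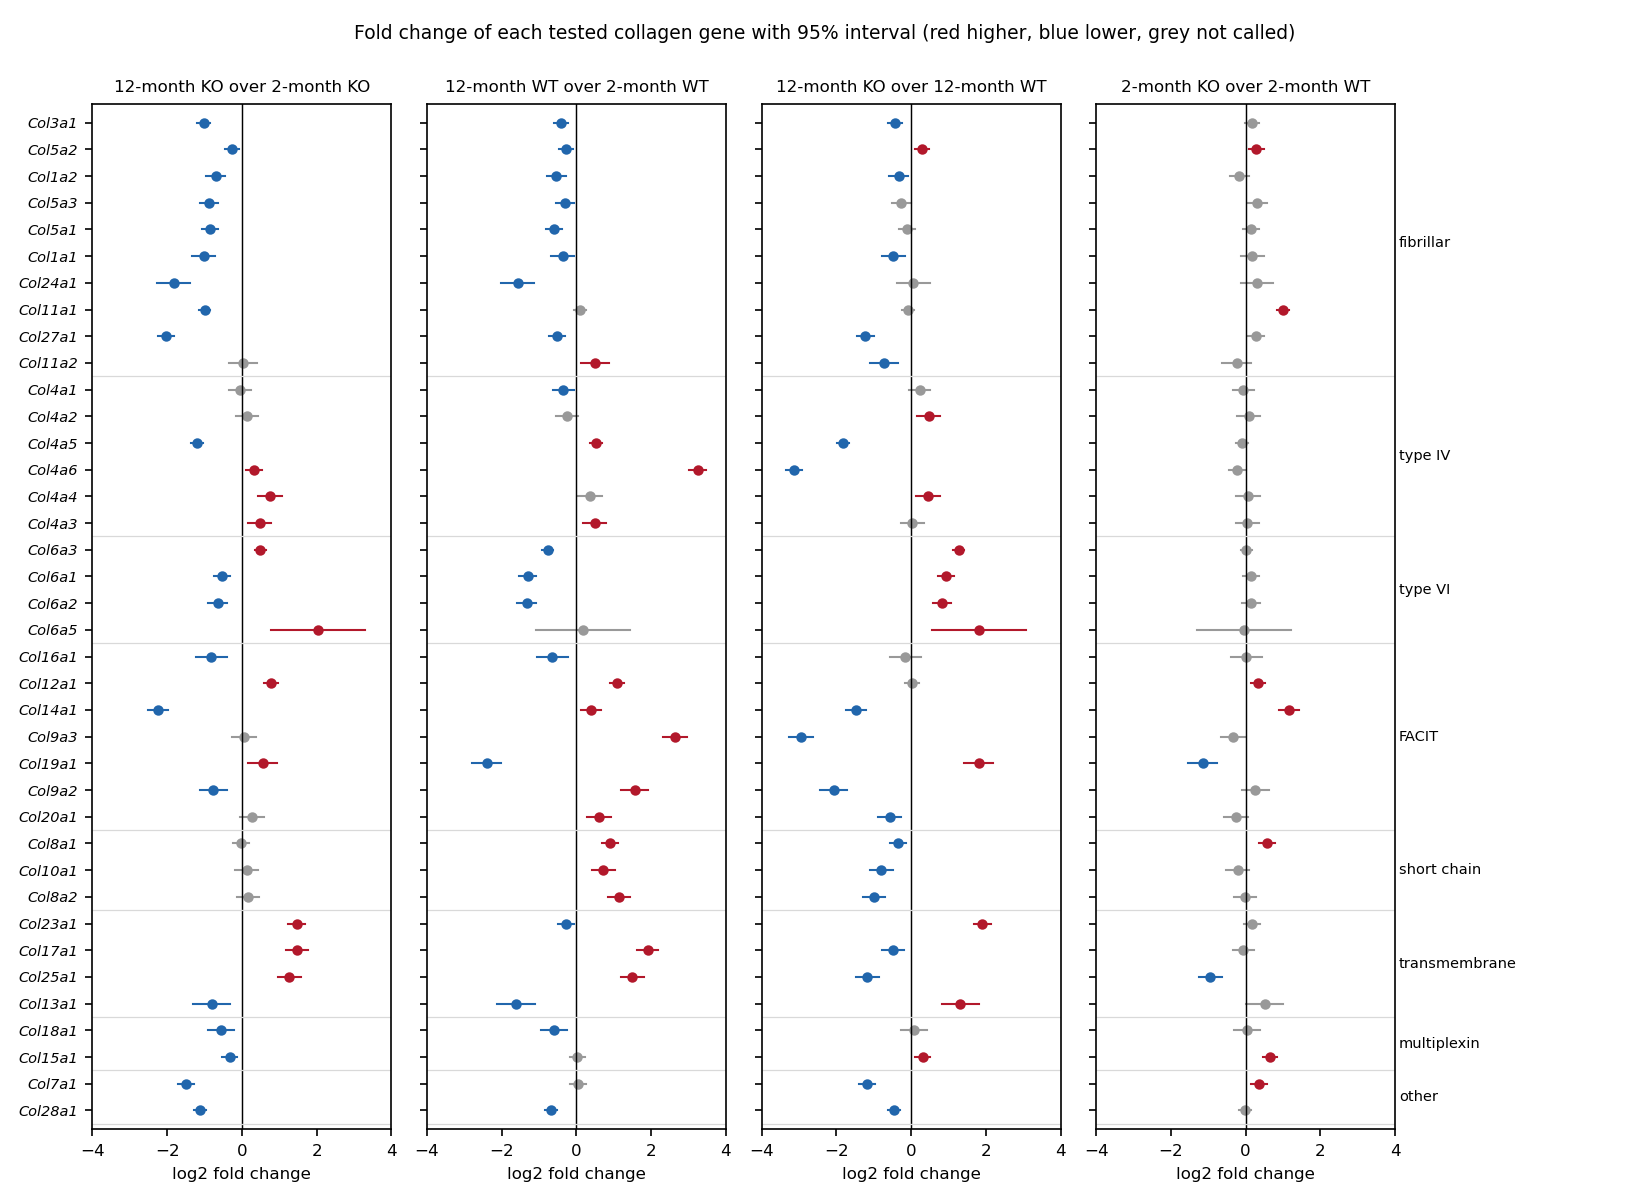
Log2 fold change of the 38 tested collagen genes in the 4 comparisons between groups, ordered by class, with 95% intervals; red points are called higher, blue lower and grey not called. Fibrillar genes lie left of 0 in both age panels apart from Col11a2 in both and Col11a1 in WT, and type VI genes lie right of 0 between genotypes at 12 months. Col6a5, Col8a2, Col11a2 and Col20a1 are coloured like the rest although they passed the filter only through their highest group.

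Fibrillar chains fell with age in KO in 9 of 10 tested genes, with none higher and a median of -0.94 (34.2% of all genes lower). In WT 8 of 10 fell, with a median of -0.39 (35.6% of all genes lower). Col11a2, the 1 counted higher in WT, passed the filter only through 12-month WT. Counts of the other classes are likewise to be read against the all-gene shares given above. Col3a1, the single chain of type III collagen, had 2209.6, 2576 and 2657 CPM in 12-month KO and 3331, 3289 and 3355 in 12-month WT. Col3a1 at 2 months had 5544, 4898 and 4693 CPM in KO and 4107, 4732 and 4527 in WT. Each 12-month group lay below its 2-month group, and 12-month KO lay below 12-month WT. The age change of Col3a1 was -1.02 ± 0.08 (SE, adjusted p = 1.98e-07) in KO and -0.42 ± 0.08 (SE, adjusted p = 0.0008) in WT, and the difference between them was -0.61 ± 0.12 (SE, adjusted p = 0.000749). At 12 months Col3a1 was lower in KO (-0.43 ± 0.08 SE, adjusted p = 0.000529). With quantile normalization the WT change of Col3a1 was -0.10 and not called, that between genotypes at 12 months was -0.70 and the difference of the age effects -1.15, and with total-count scaling the WT change was -0.26.

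Type I collagen, the main fibril of stroma, is built from Col1a1 and Col1a2. Col1a2 had 760.5, 936 and 864 CPM in 12-month KO and 1112, 1035 and 1047 in 12-month WT. Col1a2 at 2 months had 1348, 1607 and 1220.1 CPM in KO and 1308, 1783 and 1603 in WT. Both 12-month groups lay below both 2-month groups, and its age change was -0.70 ± 0.12 (SE, adjusted p = 0.000151) in KO and -0.54 ± 0.12 (SE, adjusted p = 0.00135) in WT. Col1a1 had 78.3, 112 and 104 CPM in 12-month KO and 138, 130.4 and 134 in 12-month WT. Col1a1 at 2 months had 207, 205 and 179.6 CPM in KO and 135, 199.8 and 193 in WT. It fell with age in KO without overlap (-1.02 ± 0.14 SE, adjusted p = 3.13e-05). The WT libraries of Col1a1 overlapped between ages through replicate 1 of 2-month WT, and the WT call (-0.37 ± 0.14 SE, adjusted p = 0.0405) was lost without replicate 2 or 3 of 2-month WT, any replicate of 12-month WT, or replicate 1 or 2 of 2-month KO (-0.39 to -0.27). At 12 months both were lower in KO than in WT, Col1a1 with a log2 change of -0.47 ± 0.14 (SE, adjusted p = 0.00982) and Col1a2 with -0.32 ± 0.12 (SE, adjusted p = 0.0252). Those last calls were lost without replicate 1 of 12-month KO (-0.32 and -0.24), that of Col1a2 also without replicate 1 of 12-month WT (-0.29), and with the GC trend removed the changes were -0.04 and -0.02 and not called. Other scalings gave Col1a2 a larger difference at 12 months, -0.51 with total-count scaling and -0.75 with quantile normalization, and quantile normalization a smaller WT age change (-0.35). The WT call of Col1a1 was lost with total-count scaling (-0.21) and with quantile normalization (-0.23). The age effect of Col1a1 differed between genotypes by -0.65 ± 0.20 (SE, adjusted p = 0.0142), and by -0.39 with the GC trend removed and -0.32 without both first libraries.

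Type V and XI chains sit inside fibrils and set their diameter. Col5a2 had 2009.6, 2266 and 2447 CPM in 12-month KO and 1821, 1749.9 and 1887 in 12-month WT. Col5a2 at 2 months had 2837, 2585 and 2687 CPM in KO and 1949, 2417 and 2284 in WT. It fell with age in KO (-0.27 ± 0.09 SE, adjusted p = 0.0132) and in WT (-0.28 ± 0.09 SE, adjusted p = 0.0139), with a difference between the age effects of 0.01 ± 0.12 that was not called, and was higher in KO than in WT at 12 months (0.30 ± 0.09 SE, adjusted p = 0.0079) and at 2 months (0.29 ± 0.09 SE, adjusted p = 0.0367). Each of these 4 contrasts had groups without overlap, yet no call held throughout. It was lost at 2 months without replicate 1 or 3 of 2-month WT, replicate 1 of 12-month WT or any replicate of 2-month KO (0.20 to 0.32), with age in KO without replicate 1 of 2-month or 12-month KO (-0.24 and -0.20), with age in WT without replicate 2 or 3 of 2-month WT or replicate 2 of 12-month WT (-0.26 to -0.21), with total-count scaling (-0.12), quantile normalization (-0.02) or the GC trend removed (-0.16), and at 12 months with total-count scaling (0.11) or quantile normalization (0.02). Col5a1 had 269.9, 332 and 309 CPM in 12-month KO and 326, 325 and 330.3 in 12-month WT. Col5a1 at 2 months had 514, 587 and 541 CPM in KO and 426, 566 and 508 in WT. Col5a1 fell with age in KO (-0.85 ± 0.10 SE, adjusted p = 3.94e-06) and in WT (-0.60 ± 0.10 SE, adjusted p = 0.000115), with each 12-month group below its 2-month group, and the WT change was -0.38 with quantile normalization. Col5a3 had 539, 639 and 678 CPM in 12-month KO and 702, 739 and 767 in 12-month WT. Col5a3 at 2 months had 1131, 1122 and 1152 CPM in KO and 738, 1089.5 and 944 in WT. In KO its age groups did not overlap (-0.88 ± 0.12 SE, adjusted p = 1.74e-05, or -0.53 with the GC trend removed), and in WT they overlapped and the call (-0.31 ± 0.12 SE, adjusted p = 0.0346) was lost without replicate 2 or 3 of 2-month WT or replicate 1 or 2 of 12-month WT (-0.31 to -0.18), with total-count scaling (-0.15) and with quantile normalization (-0.06). The age effect of Col5a3 differed between genotypes by -0.57 ± 0.16 (SE, adjusted p = 0.00916), and this difference was -0.17 with the GC trend removed, -0.32 without both first libraries, -0.86 with total-count scaling and -1.07 with quantile normalization. Between genotypes at 12 months neither Col5a1 (-0.11 ± 0.10 SE, adjusted p = 0.302) nor Col5a3 (-0.26 ± 0.12 SE, adjusted p = 0.0639) was called. Both were called lower in KO under quantile normalization (-0.42 and -0.64) and higher in KO with the GC trend removed (0.31 each).

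Among the minor fibrillar chains, Col11a1 had 13.5, 14.0 and 12.5 CPM in 12-month KO and 14.3, 14.6 and 13.7 in 12-month WT. Col11a1 at 2 months had 28.7, 26.8 and 25.8 CPM in KO and 12.6, 13.6 and 13.5 in WT. The 2-month KO libraries stood above all others, and the remaining groups lay between 12.5 and 14.6 CPM. Col11a1 accordingly fell with age in KO (-0.99 ± 0.07 SE, adjusted p = 4.68e-08), was not called with age in WT (0.10, adjusted p = 0.269) and was higher in KO at 2 months (1.003 ± 0.07 SE, adjusted p = 1.44e-06). Col24a1, a chain known from bone and cornea, had 7.75, 14.6 and 6.95 CPM in 12-month KO and 9.93, 8.15 and 8.47 in 12-month WT. Col24a1 at 2 months had 37.8, 34.4 and 30.5 CPM in KO and 25.2, 28.9 and 27.9 in WT. Both 12-month groups lay below both 2-month groups, with replicate 2 of 12-month KO high within its group. The age change was -1.83 ± 0.20 (SE, adjusted p = 2.99e-06) in KO and -1.58 ± 0.20 (SE, adjusted p = 1.4e-05) in WT. Col27a1, a chain known from cartilage, had 4.95, 5.65 and 4.97 CPM in 12-month KO and 12.3, 13.1 and 12.9 in 12-month WT. Col27a1 at 2 months had 21.6, 23.5 and 23.1 CPM in KO and 15.5, 21.1 and 19.7 in WT. The 4 groups did not overlap, with 2-month KO highest, then 2-month WT, 12-month WT and 12-month KO. It fell with age in KO (-2.03 ± 0.10 SE, adjusted p = 1.88e-09) and in WT (-0.53 ± 0.10 SE, adjusted p = 0.000612), and was lower in 12-month KO than in 12-month WT (-1.22 ± 0.10 SE, adjusted p = 1.9e-07, or -0.80 with the GC trend removed). Col11a2 stayed near its filter, with means of 0.417 ± 0.0693, 1.03 ± 0.215, 0.411 ± 0.142 and 0.586 ± 0.239 CPM in 12-month KO, 12-month WT, 2-month KO and 2-month WT (SD, n = 3 each). Its highest values were those of 12-month WT, through which alone it passed the filter.

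Type IV chains divided into the abundant pair Col4a1 and Col4a2, which make the network present in all basement membranes, and 4 scarcer chains that make networks restricted to certain tissues. All 6 genes lie in head-to-head pairs, in which the genes start next to each other and are read in opposite directions. Col4a1 and Col4a2 are 1 base apart on chromosome 8, Col4a4 and Col4a3 are 70 bases apart on chromosome 1, and Col4a6 and Col4a5 are 1341 bases apart on chromosome X (mm10, deposited gene coordinates). The promoter windows of the first and the last pair are shown because their genes behaved in different ways, as given after them. Each window runs from 250 bases before to 50 bases after the RefSeq gene start (RefSeq, GRCm38.p6, 5′ to 3′ on the gene's own strand), and capitals mark CCAAT or GGGCGG on either strand.
Col4a1 chr8:11312777-11313076 minus strand: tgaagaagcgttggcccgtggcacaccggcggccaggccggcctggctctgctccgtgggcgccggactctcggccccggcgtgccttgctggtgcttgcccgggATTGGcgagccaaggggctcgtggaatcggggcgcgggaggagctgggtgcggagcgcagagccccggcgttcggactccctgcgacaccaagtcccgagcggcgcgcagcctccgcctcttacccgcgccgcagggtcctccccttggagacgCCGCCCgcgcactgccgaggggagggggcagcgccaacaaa
Col4a2 chr8:11312555-11312854 plus strand: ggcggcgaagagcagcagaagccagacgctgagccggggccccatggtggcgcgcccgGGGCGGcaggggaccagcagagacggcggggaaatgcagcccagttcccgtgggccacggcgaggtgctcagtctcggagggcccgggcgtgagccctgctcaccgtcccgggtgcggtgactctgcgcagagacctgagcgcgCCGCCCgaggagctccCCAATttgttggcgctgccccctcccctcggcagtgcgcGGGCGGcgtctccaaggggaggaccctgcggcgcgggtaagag
Col4a6 chrX:141474027-141474326 minus strand: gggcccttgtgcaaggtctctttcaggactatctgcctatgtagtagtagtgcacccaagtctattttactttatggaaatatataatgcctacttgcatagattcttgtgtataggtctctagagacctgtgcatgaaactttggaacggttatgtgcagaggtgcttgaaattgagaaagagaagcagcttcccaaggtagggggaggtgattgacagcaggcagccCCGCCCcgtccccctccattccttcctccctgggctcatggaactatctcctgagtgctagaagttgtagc
Col4a5 chrX:141475169-141475468 plus strand: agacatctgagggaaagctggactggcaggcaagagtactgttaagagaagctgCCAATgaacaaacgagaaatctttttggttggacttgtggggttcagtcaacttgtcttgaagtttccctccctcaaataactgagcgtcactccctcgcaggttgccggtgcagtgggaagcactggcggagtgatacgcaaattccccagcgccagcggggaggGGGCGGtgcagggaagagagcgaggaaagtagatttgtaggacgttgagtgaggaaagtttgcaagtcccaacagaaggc
The first 2 windows overlap and have a GC content of 74.0% and 73.67%, against 48.33% and 52.67% for Col4a6 and Col4a5 and a mean of 53.8% over all 32851 windows. CCAAT was found once in the windows of Col4a1, Col4a2 and Col4a5 and was not found in that of Col4a6, and it occurred in 37.41% of all windows. GGGCGG was found in all 4 windows and in 35.66% of all windows, and in 60.53% of the 38 windows of the 35 collagen genes that have one. TATAAA was in none of the 4 and in 13.62% of all windows.

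Col4a1 had 4878, 6137 and 6549.8 CPM in 12-month KO and 4886, 4802 and 5179.7 in 12-month WT. Col4a1 at 2 months had 5881, 6156 and 6069.5 CPM in KO and 5040.0, 7631 and 6512 in WT. 12-month WT lay below 2-month KO and all other pairs of groups overlapped, with the widest spread in 2-month WT, where replicate 1 was low. No contrast between genotypes or with age in KO was called for Col4a1, and the WT age call (-0.35 ± 0.13 SE, adjusted p = 0.0381) was lost without replicate 2 or 3 of 2-month WT, any replicate of 12-month WT or replicate 2 of 2-month KO (-0.38 to -0.21) and with total-count scaling (-0.19). Its partner Col4a2 had 2408, 2994 and 3393 CPM in 12-month KO and 1995, 2059.8 and 2213 in 12-month WT. Col4a2 at 2 months had 2625, 2546 and 2754 CPM in KO and 1968, 3027 and 2602 in WT. It was called in 1 contrast, higher in KO than in WT at 12 months without overlap (0.48 ± 0.14 SE, adjusted p = 0.00823), a difference of 0.29 with total-count scaling, 0.21 with quantile normalization, both not called, and 1.04 with the GC trend removed. The age effect of Col4a2 was not called to differ between genotypes (0.39 ± 0.20 SE, adjusted p = 0.106), but a call arose without replicate 1 of 2-month WT (0.56), without replicate 1 of 12-month KO (0.53), without both (0.70) and with the GC trend removed (0.80). For Col4a1 the same difference was 0.29 ± 0.19 and not called, and a call arose without replicate 1 of 2-month WT (0.45), without both first libraries (0.58) and with the GC trend removed (0.41). Endothelial markers (7 genes), of cells that make much type IV collagen, summed to 285 to 308 CPM in 12-month KO, 124 to 135 in 12-month WT and, at 2 months, 72.9 to 77.4 in KO and 117 to 128 in WT, and their part in the Col4a1 and Col4a2 values was not tested.

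The pair on chromosome X was set apart by 12-month WT. Col4a6 had 5.02, 6.62 and 5.95 CPM in 12-month KO and 55.8, 51.5 and 58.3 in 12-month WT. Col4a6 at 2 months had 4.49, 4.25 and 4.89 CPM in KO and 5.30, 5.89 and 4.99 in WT. Its 12-month WT libraries stood far above the other 3 groups, which lay between 4.25 and 6.62 CPM. The rise with age in WT was 3.24 ± 0.10 (SE, adjusted p = 1.89e-11), the largest limma change among the 34 collagen genes tested without Col6a5, Col8a2, Col11a2 and Col20a1 in the 4 comparisons between groups, and Col4a6 was lower in 12-month KO than in 12-month WT (-3.14 ± 0.10 SE, adjusted p = 3.16e-11). The small age rise in KO (0.33 ± 0.10 SE, adjusted p = 0.0118) was lost without replicate 2 of 12-month KO (0.24) and with total-count scaling (0.21). Col4a5 had 29.7, 34.8 and 28.5 CPM in 12-month KO and 111, 105 and 113 in 12-month WT. Col4a5 at 2 months had 70.1, 75.1 and 68.8 CPM in KO and 74.0, 80.4 and 73.0 in WT. It was highest in 12-month WT and lowest in 12-month KO, with the 2-month groups between and overlapping each other. Col4a5 rose with age in WT (0.53 ± 0.07 SE, adjusted p = 3.07e-05) and fell in KO (-1.19 ± 0.07 SE, adjusted p = 1.12e-08), a difference of -1.73 ± 0.10 (SE, adjusted p = 1.53e-08). Beside these values, the sum of 8 basal and myoepithelial markers was 79.4 to 82.2 CPM in 12-month KO, 219 to 229.8 in 12-month WT and, at 2 months, 64.4 to 66.7 in KO and 51.2 to 62.2 in WT, all 8 rose with age in WT, and the luminal sum given above was also highest in 12-month WT, where 9 of 10 markers rose. With age in KO, where Col4a5 fell, 5 of the basal markers rose and 1 fell, and 4 of the luminal markers rose and 2 fell. The part of basal and luminal cells in the Col4a5 and Col4a6 values was not tested.

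Col4a3 and Col4a4, chains known from the kidney glomerulus, had means of 0.971 to 1.60 and 1.03 to 2.196 CPM over the 4 groups. Col4a3 rose with age in KO (0.48 ± 0.14 SE, adjusted p = 0.00908) and in WT (0.49 ± 0.14 SE, adjusted p = 0.00931, lost without replicate 3 of 2-month WT, 0.36, and with quantile normalization, 0.35). Col4a4 rose in KO (0.75 ± 0.15 SE, adjusted p = 0.000703), was not called in WT (0.36, adjusted p = 0.0598) and was higher in KO than in WT at 12 months (0.46 ± 0.15 SE, adjusted p = 0.0154), a call lost without replicate 1 of 12-month WT (0.34) or replicate 3 of 12-month KO (0.36) and with total-count scaling (0.31), while quantile normalization gave 0.69. At 2 months none of the 6 type IV genes was called between genotypes by limma, edgeR or DESeq2, and 1, Col4a6, had an unadjusted limma p under 0.05 (-0.22 ± 0.10).

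Type VI collagen fell with age in WT and stood higher in 12-month KO. Col6a3, the large chain that ends in the endotrophin fragment, had 4856, 4817 and 5081 CPM in 12-month KO and 1915, 2002 and 2167 in 12-month WT. Col6a3 at 2 months had 3623, 3635 and 3253 CPM in KO and 3493, 3616 and 3294 in WT. The 12-month KO libraries were the highest and the 12-month WT libraries the lowest, without overlap, and the 2-month groups overlapped. Col6a3 rose with age in KO (0.49 ± 0.07 SE, adjusted p = 2.72e-05) and fell in WT (-0.77 ± 0.07 SE, adjusted p = 3.69e-07, or -0.46 with quantile normalization), and it was higher in KO at 12 months (1.28 ± 0.07 SE, adjusted p = 1.97e-09). Col6a1 had 979, 1143 and 1263 CPM in 12-month KO and 553, 590.5 and 625 in 12-month WT. Col6a1 at 2 months had 1752, 1585 and 1511 CPM in KO and 1312, 1655 and 1435 in WT. Col6a2, its neighbour on chromosome 10, had 395, 471 and 508 CPM in 12-month KO and 239, 259 and 272 in 12-month WT. Col6a2 at 2 months had 761, 711 and 671 CPM in KO and 549.6, 776 and 634 in WT. For both genes the 12-month WT libraries were the lowest, the 12-month KO libraries came next and the 2-month libraries were highest. Col6a1 fell with age in KO (-0.52 ± 0.10 SE, adjusted p = 0.000472) and in WT (-1.31 ± 0.10 SE, adjusted p = 1.01e-07), and so did Col6a2 (-0.65 ± 0.11 SE, adjusted p = 0.000241 in KO, -1.33 ± 0.11 SE, adjusted p = 3.1e-07 in WT). Between genotypes at 12 months Col6a1 was higher in KO by 0.93 ± 0.10 (SE, adjusted p = 2.51e-06) and Col6a2 by 0.83 ± 0.11 (SE, adjusted p = 2.5e-05) (both 0.53 with quantile normalization). The age effects differed between genotypes for Col6a3 (1.27 ± 0.10 SE, adjusted p = 1.32e-07), Col6a1 (0.79 ± 0.14 SE, adjusted p = 0.000384) and Col6a2 (0.69 ± 0.16 SE, adjusted p = 0.00271), with 0.31 for Col6a1 and 0.27, not called, for Col6a2 under quantile normalization and 0.497 and 0.40 with total-count scaling. The KO age change of Col6a1 was -0.79 with quantile normalization. The fibroblast marker sum was likewise lowest in 12-month WT, where 8 of 10 markers fell with age and 1 rose. With age in KO the markers were mixed, with 5 higher and 4 lower. Between genotypes at 12 months 8 were higher and 2, Fap and Dpt, lower in KO. Dcn, given below, made up the larger part of the sum in every group. The part of fibroblasts in the type VI values was not tested.

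The remaining type VI chains lie in a row on chromosome 9 and were scarce. Col6a5 had 0.841, 8.55 and 0.416 CPM in 12-month KO and 0.0790, 0.192 and 0.143 in 12-month WT. Col6a5 at 2 months had 0.108, 0 and 0.0260 CPM in KO and 0.0740, 0.123 and 0 in WT. All 3 libraries of 12-month KO lay above all other libraries, and replicate 2 stood far above the other replicates of its group. The other groups lay near the level of 3 reads, which is 0.029 to 0.0859 CPM by library, and since Col6a5 passed the filter only through 12-month KO, and there through replicate 2, no test of it is given. Col6a6, next to it and under the filter, had 0.484, 3.00 and 0.358 CPM in 12-month KO, with replicate 2 again the highest, and 0.026 to 0.172 CPM in the other 3 groups. Col6a4 was at or under 0.397 CPM in all libraries.

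FACIT collagens, which bind to fibrils without forming them, were called in both directions, with 2 higher and 3 lower of 7 tested with age in KO and 5 higher, Col20a1 among them, and 2 lower in WT. Col12a1 had 147, 127 and 128 CPM in 12-month KO and 133, 129 and 132 in 12-month WT. Col12a1 at 2 months had 81.1, 83.9 and 68.9 CPM in KO and 68.5, 60.7 and 56.2 in WT. Col12a1 codes for a chain found along fibrils of tendon and other loaded tissue. Col12a1 rose with age in KO (0.78 ± 0.09 SE, adjusted p = 3.73e-06) and in WT (1.09 ± 0.09 SE, adjusted p = 1.43e-07), and each 12-month group lay above both 2-month groups. Col12a1 was higher in KO at 2 months (0.33 ± 0.09 SE, adjusted p = 0.0189), a call lost without replicate 2 or 3 of 2-month WT or replicate 1 or 2 of 2-month KO (0.27 to 0.32). Col16a1 had 75.0, 107 and 109.5 CPM in 12-month KO and 105, 106 and 110.0 in 12-month WT. Col16a1 at 2 months had 163, 159 and 188 CPM in KO and 114, 217 and 190.5 in WT. Each 12-month group lay below its 2-month group, in WT by a small margin because of replicate 1 of 2-month WT. Col16a1 fell with age in KO (-0.82 ± 0.19 SE, adjusted p = 0.00212, or -0.47 with the GC trend removed) and in WT (-0.65 ± 0.19 SE, adjusted p = 0.0114), and the WT call was lost without replicate 2 or 3 of 2-month WT (-0.46 and -0.55). Between genotypes at 12 months Col16a1 was not called (-0.16 ± 0.19), and with the GC trend removed it was 0.41 and called. Col14a1, a chain of loose and dense connective tissue, had 2.75, 3.47 and 3.16 CPM in 12-month KO and 9.63, 8.56 and 10.5 in 12-month WT. Col14a1 at 2 months had 18.8, 17.1 and 14.2 CPM in KO and 7.92, 7.28 and 6.29 in WT. The order was 2-month KO highest, then 12-month WT, 2-month WT and 12-month KO, with no overlap between neighbours in that order. Col14a1 fell with age in KO (-2.24 ± 0.12 SE, adjusted p = 4.11e-09) and was higher in KO at 2 months (1.16 ± 0.12 SE, adjusted p = 4.25e-05) but lower in KO at 12 months (-1.47 ± 0.12 SE, adjusted p = 1.85e-07). In WT it rose with age by 0.39 ± 0.12 (SE, adjusted p = 0.0142), a call lost without replicate 3 of 2-month WT (0.31) or replicate 3 of 12-month WT (0.33) and with quantile normalization (0.28). The age effects differed by -2.63 ± 0.17 (SE, adjusted p = 3.78e-08).

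Type IX chains, known from cartilage where they coat type II fibrils, were high in 12-month WT. Col9a3 had 1.25, 1.98 and 1.83 CPM in 12-month KO and 14.7, 16.8 and 16.9 in 12-month WT. Col9a3 at 2 months had 1.57, 1.62 and 1.59 CPM in KO and 1.64, 2.48 and 2.46 in WT. Its 12-month WT libraries stood above all others, the rise with age in WT was 2.64 ± 0.15 (SE, adjusted p = 4.99e-09), and the level in 12-month KO was lower than in 12-month WT (-2.94 ± 0.15 SE, adjusted p = 1.32e-09). Col9a3 shares 230 bases of its span with Tcfl5 on the other strand, whose means were 0.365 CPM in 12-month KO, 1.54 in 12-month WT and, at 2 months, 4.58 in KO and 6.86 in WT, and the strand setting of the counting is not given in the sources used here. Col9a2 had 0.229, 0.236 and 0.435 CPM in 12-month KO and 2.89, 2.81 and 2.81 in 12-month WT. Col9a2 at 2 months had 1.0, 0.583 and 1.03 CPM in KO and 0.417, 0.759 and 0.757 in WT. It too was highest in 12-month WT, and 12-month KO lay below 2-month KO. Col9a2 rose with age in WT (1.56 ± 0.17 SE, adjusted p = 2.67e-06), fell in KO (-0.77 ± 0.17 SE, adjusted p = 0.00113, or -0.42 with the GC trend removed and -1.37 by edgeR) and was lower in 12-month KO than in 12-month WT (-2.07 ± 0.17 SE, adjusted p = 1.26e-07). Col9a1, under the filter, had 0.153, 0.142 and 0.0290 CPM in 12-month KO and 0.889, 0.914 and 0.973 in 12-month WT, against 0.185 to 0.518 CPM at 2 months. Of the fibril they coat little RNA was counted. Col2a1, the type II chain, had 8 reads in all 12 libraries together. Of the 6 cartilage markers in the table, Sox9 alone passed the filter, with means of 52.8 ± 2.68 CPM in 12-month KO and 35.5 ± 3.56 in 12-month WT (SD, n = 3 each), and Acan, Matn1, Matn3, Hapln1 and Lect1 had means under 0.5 CPM. The luminal and basal marker sums were also highest in 12-month WT, and their part in the type IX values was not tested.

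Col19a1, a FACIT-like chain made by muscle and some neurons, had 7.21, 4.21 and 5.25 CPM in 12-month KO and 1.51, 1.27 and 0.859 in 12-month WT. Col19a1 at 2 months had 3.33, 3.50 and 3.78 CPM in KO and 8.44, 9.89 and 7.17 in WT. The 12-month WT libraries were the lowest and the 2-month WT libraries stood above 2-month KO. Col19a1 fell with age in WT (-2.40 ± 0.18 SE, adjusted p = 8.7e-08) and rose in KO (0.56 ± 0.18 SE, adjusted p = 0.0154), a rise lost without replicate 1 of 12-month KO (0.37). The difference between the age effects, 2.96 ± 0.26 (SE, adjusted p = 4.76e-07), was the largest positive one among collagen genes. Skeletal muscle markers (8 genes) summed to 809 to 1520 CPM in 12-month KO, 174 to 197 in 12-month WT and, at 2 months, 248 to 300.4 in KO and 882 to 1037 in WT, with 5 higher and 1 lower of 7 tested with age in KO and 0 higher and 7 lower in WT, and their part in the Col19a1 values was not tested. Col20a1 stayed between 0.189 and 1.02 CPM, and its 12-month WT libraries, through which alone it passed the filter, were the highest.

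**Figure D3:**
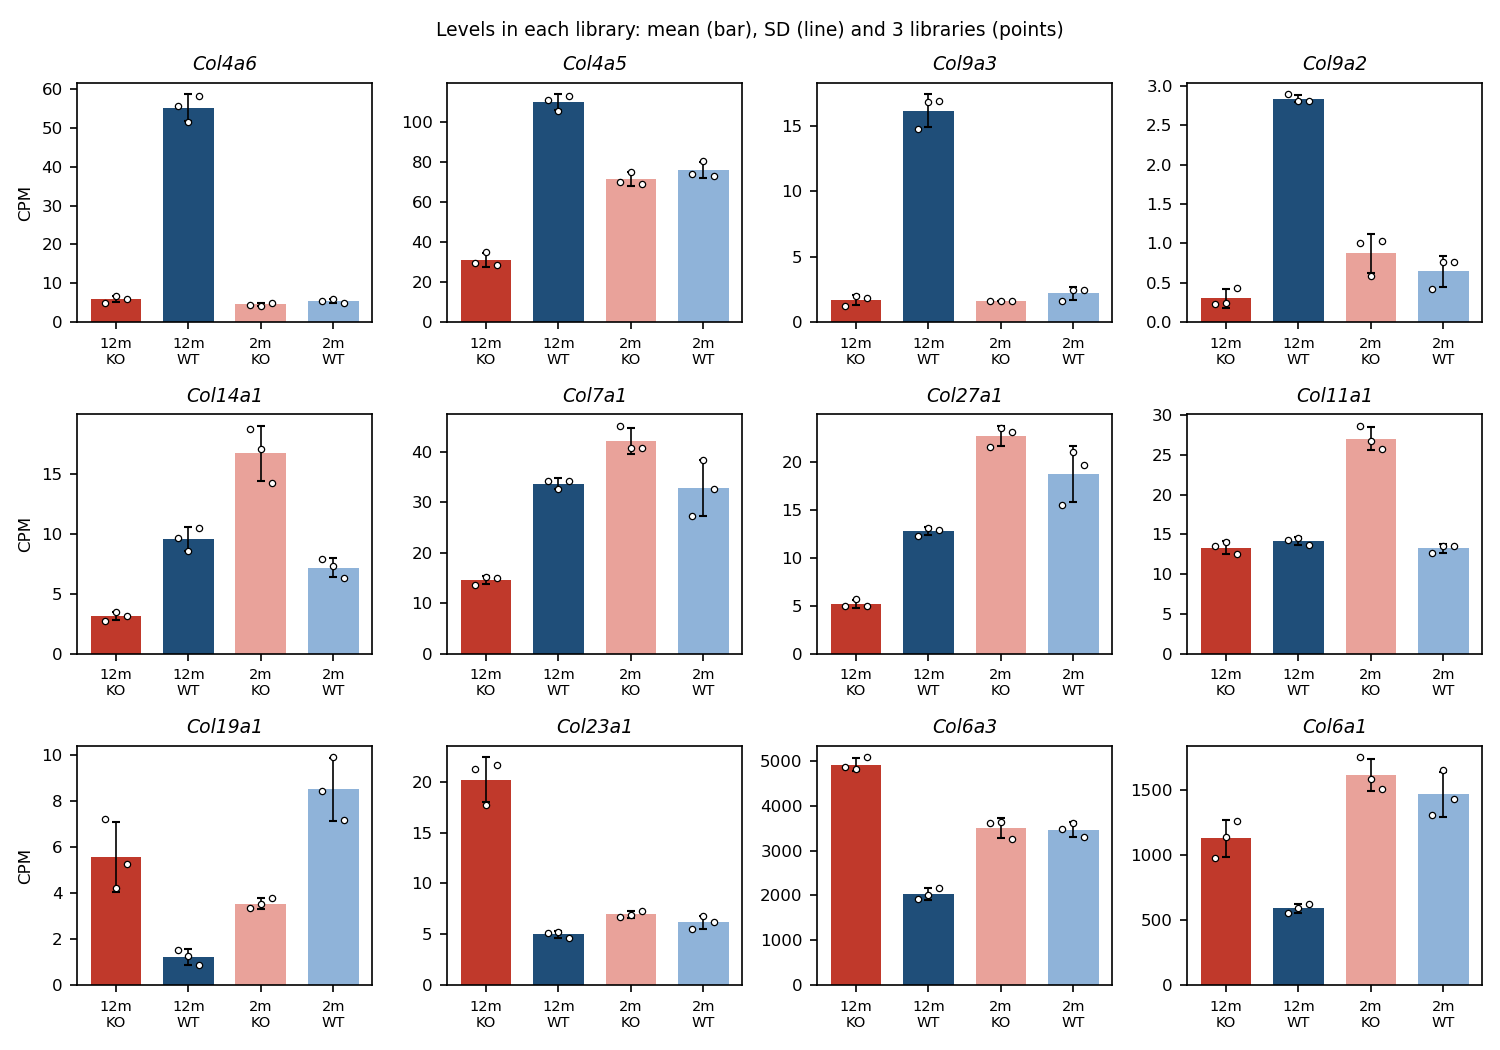
Deposited level in CPM of 12 collagen genes whose age effect differed between genotypes; bars are group means with 0 as the base, lines are the SD over 3 libraries and points the libraries. Col4a6, Col9a3 and Col9a2 are high in 12-month WT, Col23a1 and Col6a3 in 12-month KO, and Col11a1 and Col14a1 in 2-month KO.

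Of the short chains Col8a1 and Col10a1 rose with age in WT, and Col8a2 was highest in 12-month WT. Neither Col8a1 nor Col10a1 was called with age in KO, where limma gave changes of -0.02 for Col8a1 and 0.13 for Col10a1. Each had an unadjusted limma p above 0.05 and was not called by edgeR or DESeq2 either. Col8a1, known from blood vessel walls and Descemet's membrane of the cornea, had 130.4, 109.9 and 92.7 CPM in 12-month KO and 143, 141 and 135 in 12-month WT. Col8a1 at 2 months had 111, 120.5 and 104 CPM in KO and 78.6, 73.0 and 71.9 in WT. The 2-month WT libraries were the lowest and the 12-month WT libraries the highest, and both KO groups lay between. Col8a1 rose with age in WT by 0.90 ± 0.10 (SE, adjusted p = 3.05e-06), was higher in KO at 2 months (0.58 ± 0.10 SE, adjusted p = 0.00135) and lower in KO at 12 months (-0.34 ± 0.10 SE, adjusted p = 0.0066, or -0.22 without replicate 3 of 12-month KO and -0.53 with total-count scaling). Col8a2 had means of 0.546 ± 0.104, 1.58 ± 0.0551, 0.444 ± 0.164 and 0.443 ± 0.0609 CPM in 12-month KO, 12-month WT, 2-month KO and 2-month WT, and passed the filter only through 12-month WT. Col10a1, known from growth-plate cartilage, had means of 0.704 ± 0.120, 1.59 ± 0.216, 0.601 ± 0.143 and 0.778 ± 0.166 CPM in the same order, with a WT rise of 0.71 ± 0.14 (SE, adjusted p = 0.000792). Both Col10a1 and Col8a1 are overlapped by a gene on the other strand, Col10a1 by Nt5dc1, whose group means were 18.9 to 26.1 CPM, and Col8a1 by BC002163, with 31.4 to 43.2 CPM.

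Of the 4 transmembrane collagens, 3 rose with age in KO and 1 fell (all genes 32.9% higher and 34.2% lower). In WT 2 rose and 2 fell (all genes 22.3% higher and 35.6% lower). Col17a1, which links basal keratinocytes and other basal epithelial cells to the basement membrane through hemidesmosomes, had 5.92, 5.20 and 5.53 CPM in 12-month KO and 7.26, 7.93 and 8.76 in 12-month WT. Col17a1 at 2 months had 1.81, 1.27 and 1.98 CPM in KO and 1.50, 1.89 and 1.91 in WT. Both 12-month groups lay above both 2-month groups. It rose in KO by 1.48 ± 0.13 (SE, adjusted p = 4.34e-07) and in WT by 1.91 ± 0.13 (SE, adjusted p = 3.55e-08), and was lower in KO at 12 months (-0.49 ± 0.13 SE, adjusted p = 0.00501), a call lost with the GC trend removed (-0.21) and with quantile normalization (-0.19). Col25a1, found in nerve and developing muscle, had 2.70, 1.94 and 2.36 CPM in 12-month KO and 6.07, 6.42 and 5.12 in 12-month WT. Col25a1 at 2 months had 0.541, 0.756 and 0.720 CPM in KO and 1.62, 1.54 and 2.17 in WT. Each KO group lay below the WT group of its age. It rose in both genotypes (1.27 ± 0.14 SE, adjusted p = 3.74e-06 in KO, 1.49 ± 0.14 SE, adjusted p = 8.34e-07 in WT) and was lower in KO at both ages (-1.17 ± 0.14 SE, adjusted p = 7.02e-06 at 12 months, -0.95 ± 0.14 SE, adjusted p = 0.000538 at 2 months). Col23a1 had 21.3, 17.7 and 21.6 CPM in 12-month KO and 5.15, 5.22 and 4.61 in 12-month WT. Col23a1 at 2 months had 6.65, 6.91 and 7.33 CPM in KO and 5.47, 6.79 and 6.21 in WT. The 12-month KO libraries stood above all others. Col23a1 rose in KO by 1.47 ± 0.10 (SE, adjusted p = 3.65e-08), and its small WT fall (-0.27 ± 0.10 SE, adjusted p = 0.0333) was lost without replicate 2 or 3 of 2-month WT or replicate 1 or 3 of 12-month WT (-0.30 to -0.21) and with total-count scaling (-0.13), and it was -0.43 with quantile normalization. At 12 months it was higher in KO by 1.91 ± 0.10 (SE, adjusted p = 2.04e-09). Col13a1, known from the neuromuscular junction, had 1.38, 2.06 and 3.40 CPM in 12-month KO and 0.492, 0.721 and 0.487 in 12-month WT. Col13a1 at 2 months had 4.89, 3.24 and 4.45 CPM in KO and 2.18, 3.24 and 2.94 in WT. It fell with age in KO, where the groups overlapped (-0.81 ± 0.23 SE, adjusted p = 0.00732), and in WT, where they did not (-1.62 ± 0.23 SE, adjusted p = 4.19e-05).

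The tested multiplexins and remaining chains fell with age in KO. In WT Col18a1 and Col28a1 fell. Limma did not call Col15a1 (0.02 ± 0.09 SE, adjusted p = 0.848) or Col7a1 (0.05 ± 0.10 SE, adjusted p = 0.68) with age in WT. Col18a1, which carries heparan sulfate in basement membranes, had 307, 413 and 467 CPM in 12-month KO and 367, 352 and 381 in 12-month WT. Col18a1 at 2 months had 531, 599.8 and 597 CPM in KO and 427, 697 and 583 in WT. Col18a1 fell with age in KO (-0.56 ± 0.16 SE, adjusted p = 0.00756, or -0.21 with the GC trend removed) and in WT (-0.61 ± 0.16 SE, adjusted p = 0.0056, or -0.40 with quantile normalization), and each 12-month group lay below its 2-month group. Col15a1, found where basement membrane meets stroma, had 148, 188 and 167 CPM in 12-month KO and 129, 134 and 142 in 12-month WT. Col15a1 at 2 months had 218, 224 and 187 CPM in KO and 128, 145 and 126 in WT. It was higher in KO than in WT at 12 months (0.31 ± 0.09 SE, adjusted p = 0.00845) and at 2 months (0.66 ± 0.09 SE, adjusted p = 0.00031), in both cases without overlap, and the difference at 12 months was 0.12 with total-count scaling and 0.13 with quantile normalization, both not called, and 0.61 with the GC trend removed. In KO it fell with age, with replicate 2 of 12-month KO at the level of the lowest 2-month library (-0.33 ± 0.09 SE, adjusted p = 0.00648), and with the GC trend removed the change was -0.14 and not called. Col7a1, the anchoring fibril under stratified epithelium, had 13.7, 15.2 and 14.9 CPM in 12-month KO and 34.4, 32.6 and 34.3 in 12-month WT. Col7a1 at 2 months had 45.2, 40.8 and 40.8 CPM in KO and 27.4, 38.4 and 32.7 in WT. The 12-month KO libraries were the lowest, with an age fall in KO of -1.50 ± 0.10 (SE, adjusted p = 2.37e-08) and a difference from WT at 12 months of -1.18 ± 0.10 (SE, adjusted p = 1.94e-07), or -0.62 with the GC trend removed. The higher level of Col7a1 in KO at 2 months (0.37 ± 0.10 SE, adjusted p = 0.0222) was lost without replicate 3 of 2-month WT (0.37) or replicate 1 of 2-month KO (0.32). Col28a1, known from nerve, had 7.70, 7.46 and 8.19 CPM in 12-month KO and 11.4, 11.3 and 10.1 in 12-month WT. Col28a1 at 2 months had 17.5, 18.2 and 17.2 CPM in KO and 16.9, 18.5 and 18.4 in WT. Col28a1 fell with age in KO (-1.13 ± 0.07 SE, adjusted p = 2.2e-08) and in WT (-0.69 ± 0.07 SE, adjusted p = 2.95e-06), with both 12-month groups below both 2-month groups. Col26a1 and Col22a1, under the filter, had 0.057 to 0.697 and 0.043 to 0.226 CPM over the 12 libraries.

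Chains that share a trimer need not be made in the proportion of the trimer, and their ratio per kilobase of transcript is free of any scaling between libraries, though not of a GC trend. Col6a3 to Col6a1 averaged 1.78 ± 0.201 in 12-month KO and 1.40 ± 0.0169 in 12-month WT and, at 2 months, 0.881 ± 0.0460 in KO and 0.966 ± 0.101 in WT (SD, n = 3 each). Both 12-month groups lay above both 2-month groups, and 12-month KO lay above 12-month WT. Col5a1 to Col5a2 was 0.107 ± 0.00803 in 12-month KO and 0.142 ± 0.00436 in 12-month WT and, at 2 months, 0.160 ± 0.0181 in KO and 0.177 ± 0.00642 in WT, and 12-month KO lay below every other group. Col4a1 to Col4a2 was 1.95 ± 0.0614 in 12-month KO and 2.31 ± 0.0638 in 12-month WT and, at 2 months, 2.23 ± 0.111 in KO and 2.47 ± 0.0290 in WT, with 12-month KO again below every other group. Col6a1 to Col6a2 ran from 2.56 to 2.98 over the 12 libraries, and 12-month KO (2.91 to 2.98) lay above every other group (at most 2.86). Col1a1 to Col1a2 ran from 0.0929 to 0.138, and at 2 months KO (0.115 to 0.138) lay above WT (0.0933 to 0.109). The type I collagen molecule itself holds more of the first of these chains than of the second. The ratios are a description, and no test of them was run. Partner chains differ in GC content, with 58.02% for Col5a1 and 49.65% for Col5a2, and 57.69% for Col4a1 and 60.56% for Col4a2. No ratio was computed with the GC trend of each library removed. Transcript lengths are those of the longest GENCODE transcript, and the level of each ratio depends on them.

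**Figure D4:**
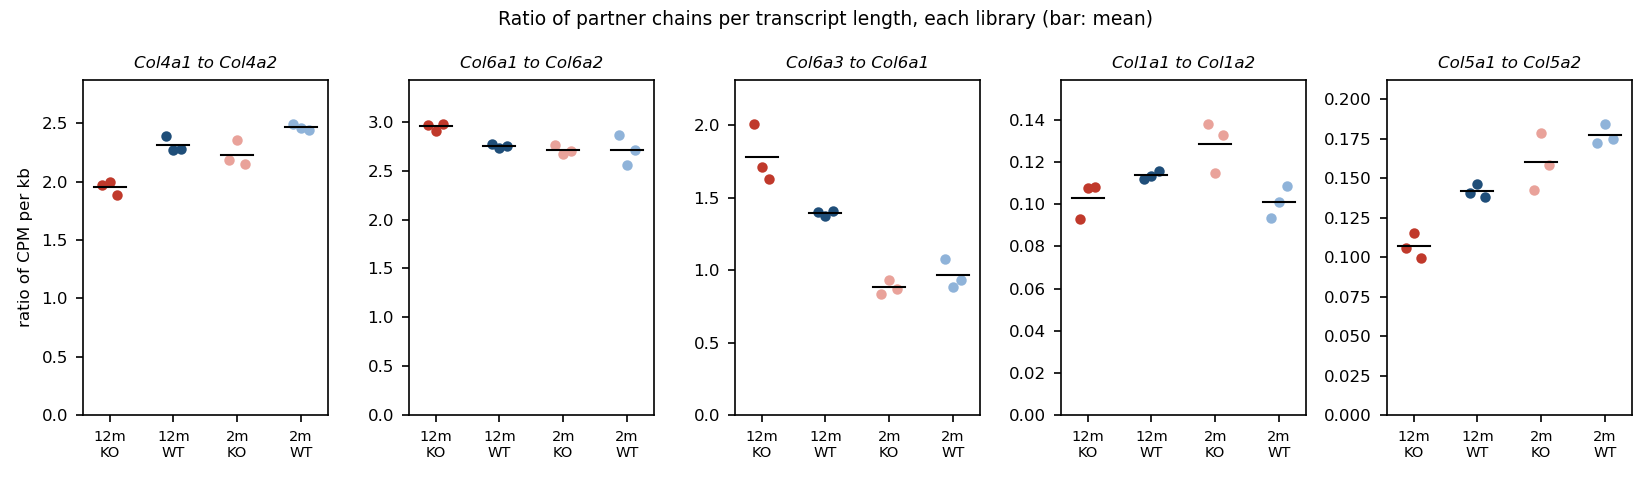
Ratio of CPM per kb of transcript between chains that share a trimer, per library (points) with group means (bars). Col6a3 to Col6a1 is above 1.3 in all 12-month libraries and below 1.1 in all 2-month libraries.

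Genes that modify, fold, trim, cross-link and bind collagen were counted next to the chains, and their counts are to be read against the all-gene shares given above. Prolyl and lysyl hydroxylases and their partners, which modify the chains before they fold, had 6 higher and 4 lower of 15 with age in KO and 3 higher and 11 lower in WT, and between genotypes at 12 months 8 were higher and 3 lower in KO. P4ha1, a catalytic subunit of prolyl hydroxylase, had 516, 519.7 and 537 CPM in 12-month KO and 288, 296 and 300.4 in 12-month WT. P4ha1 at 2 months had 384, 374 and 402 CPM in KO and 456, 437 and 456 in WT. It rose with age in KO (0.44 ± 0.05 SE, adjusted p = 1.77e-06) and fell in WT (-0.61 ± 0.05 SE, adjusted p = 7.63e-08), and the 4 groups did not overlap. P4hb, protein disulfide isomerase and the other subunit of that enzyme, had 1643, 1769 and 1717 CPM in 12-month KO, 1276, 1201 and 1276 in 12-month WT and, at 2 months, 1556, 1532 and 1549 in KO and 1567, 1666 and 1669 in WT, with age changes of 0.15 ± 0.05 (SE, adjusted p = 0.0237) in KO and -0.39 ± 0.05 (SE, adjusted p = 2.38e-05) in WT. Folding and export genes had 3 higher and 7 lower of 11 with age in KO and 0 higher and 9 lower in WT, and 9 were higher in 12-month KO than in 12-month WT. Serpinh1, the collagen chaperone HSP47, had 874, 1046 and 1145 CPM in 12-month KO and 1162, 1175 and 1073 in 12-month WT. Serpinh1 at 2 months had 1969.7, 1868 and 2046 CPM in KO and 1395, 2053 and 1852 in WT. This gene fell with age in both genotypes (-0.95 ± 0.12 SE, adjusted p = 1.65e-05 in KO, -0.62 ± 0.12 SE, adjusted p = 0.000768 in WT) and did not pass the test between genotypes at 12 months (-0.16 ± 0.12 SE, adjusted p = 0.256).

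Propeptide proteases and their enhancers had 3 higher and 3 lower of 8 with age in KO and 1 higher and 5 lower in WT. Adamts2, which removes amino-terminal propeptides, had 148, 161 and 192 CPM in 12-month KO and 56.7, 57.7 and 59.1 in 12-month WT. Adamts2 at 2 months had 55.1, 59.4 and 56.7 CPM in KO and 61.8, 93.3 and 77.6 in WT. Its 12-month KO libraries stood above all others, with an age rise in KO of 1.53 ± 0.12 (SE, adjusted p = 1.35e-07). Adamts14, of the same family, had 5.43, 6.33 and 5.72 CPM in 12-month KO and 22.6, 21.9 and 23.2 in 12-month WT. Adamts14 at 2 months had 31.5, 33.9 and 33.6 CPM in KO and 35.7, 49.0 and 39.5 in WT. Its 12-month KO libraries were the lowest, with an age change in KO of -2.41 ± 0.10 (SE, adjusted p = 3.08e-10). Bmp1, the main carboxyl-terminal propeptide protease, fell with age in KO (-0.69 ± 0.08 SE, adjusted p = 6.78e-06) and was not called in WT (-0.19, adjusted p = 0.0654). Of the 5 lysyl oxidases, which cross-link finished fibrils, 4 were higher and none lower in 12-month KO than in 12-month WT. Lox had 1906, 2119 and 1669.9 CPM in 12-month KO and 752, 733 and 631 in 12-month WT. Lox at 2 months had 667, 748 and 588 CPM in KO and 694, 597 and 597 in WT. Only the 12-month KO libraries of Lox stood apart, above all others. It rose in KO by 1.51 ± 0.11 (SE, adjusted p = 4.36e-08) and was not called in WT (0.16, adjusted p = 0.205), and the difference between the age effects was 1.34 ± 0.15 (SE, adjusted p = 5.23e-06). At 2 months limma called none of the 5 between genotypes, and Loxl1 alone had an unadjusted p under 0.05 (-0.41 ± 0.16).

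Collagen receptors had 4 higher and 2 lower of 9 tested with age in KO and 2 higher and 3 lower in WT, and between genotypes at 12 months 5 were higher and 3 lower in KO. Itga11, an integrin chain of fibroblasts, had 16.9, 19.5 and 23.3 CPM in 12-month KO, 3.19, 3.17 and 4.15 in 12-month WT and, at 2 months, 2.73, 3.61 and 2.47 in KO and 4.49, 4.37 and 4.17 in WT, and it was higher in 12-month KO than in 12-month WT by 2.34 ± 0.14 (SE, adjusted p = 8.13e-09). The discoidin domain receptors are kinases switched on by collagen. Ddr1, the epithelial one, had 10.6, 13.4 and 15.0 CPM in 12-month KO, 68.4, 76.0 and 74.4 in 12-month WT and, at 2 months, 14.8, 15.6 and 16.6 in KO and 15.9, 20.9 and 20.8 in WT, and was lower in 12-month KO than in 12-month WT (-2.46 ± 0.12 SE, adjusted p = 1.19e-09). Ddr2, the mesenchymal one, had 921, 924 and 871 CPM in 12-month KO, 409, 403 and 412 in 12-month WT and, at 2 months, 619.8, 614 and 587 in KO and 774, 689.9 and 707 in WT, and was higher in 12-month KO by 1.15 ± 0.05 (SE, adjusted p = 5.05e-10). Non-collagen partners in the basement membrane had 10 higher and 1 lower of 16 with age in KO and 8 higher and 6 lower in WT. Lamb3, an epithelial laminin chain, had 17.7, 20.5 and 17.0 CPM in 12-month KO, 119, 125 and 130.3 in 12-month WT and, at 2 months, 21.7, 20.5 and 22.8 in KO and 13.7, 18.4 and 18.2 in WT and was, like Col4a6, highest in 12-month WT, with an age change in WT of 2.87 ± 0.11 (SE, adjusted p = 6.65e-11). Lama2, the laminin chain of muscle and stroma, had 1650.2, 1615 and 1634 CPM in 12-month KO, 339, 323 and 355 in 12-month WT and, at 2 months, 703, 681 and 618 in KO and 694, 654 and 654 in WT and was higher in 12-month KO than in 12-month WT by 2.27 ± 0.06 (SE, adjusted p = 4.75e-12). Lama5, another epithelial laminin chain, had 23.3, 22.1 and 23.6 CPM in 12-month KO, 111, 121 and 121 in 12-month WT and, at 2 months, 5.79, 8.01 and 7.97 in KO and 8.44, 14.3 and 11.4 in WT, with age changes of 1.61 ± 0.15 (SE, adjusted p = 8.17e-07) in KO and 3.34 ± 0.15 (SE, adjusted p = 6.21e-10) in WT. Both epithelial chains were highest in 12-month WT, whereas Lama2 was highest in 12-month KO. Proteins that bind fibrils had 8 higher and 3 lower of 12 tested with age in KO and 2 higher and 9 lower in WT. Dcn, the fibril-coating proteoglycan decorin, had 3988, 3945 and 4477 CPM in 12-month KO, 1827, 1698 and 1512 in 12-month WT and, at 2 months, 2520.4, 2494 and 2560.3 in KO and 3457, 3270.4 and 3294 in WT, with age changes of 0.71 ± 0.07 (SE, adjusted p = 1.78e-06) in KO and -0.996 ± 0.07 (SE, adjusted p = 6.37e-08) in WT. Of the genes whose proteins bind fibrils, Dcn, Lum and Dpt are also markers in the fibroblast list. Fn1, the fibronectin on which fibrils assemble, had 2603, 2976 and 2809.7 CPM in 12-month KO, 1163, 1164 and 1304 in 12-month WT and, at 2 months, 1502, 1481 and 1420.0 in KO and 1715, 1762 and 1801 in WT, and was higher in 12-month KO than in 12-month WT (1.21 ± 0.06 SE, adjusted p = 1.94e-09). Tnxb, the large tenascin that binds fibrils of loose connective tissue, had 107, 101 and 136 CPM in 12-month KO and 30.8, 29.1 and 30.3 in 12-month WT. Tnxb at 2 months had 29.2, 32.3 and 28.0 CPM in KO and 45.0, 65.1 and 57.1 in WT. Its 12-month KO libraries lay above all others, and its age change in KO was 1.91 ± 0.13 (SE, adjusted p = 2.5e-08).

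**Figure D5:**
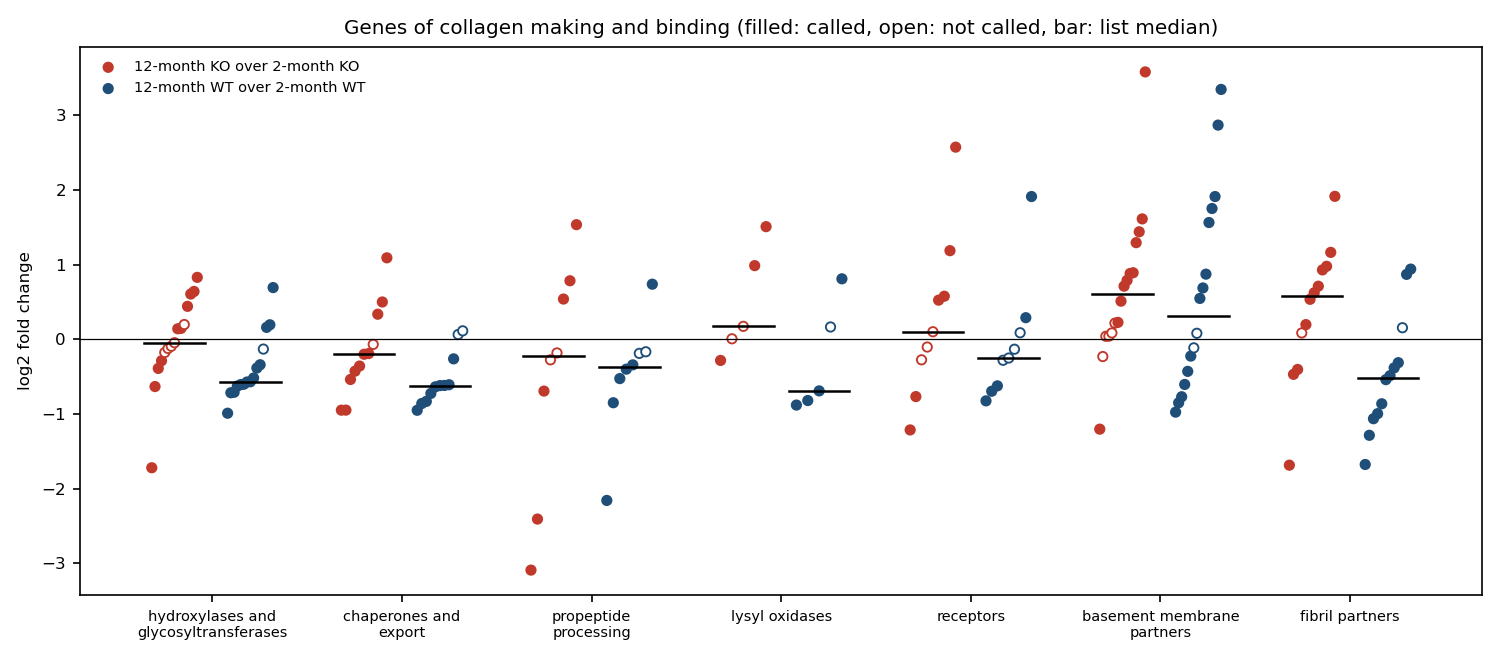
Log2 fold change with age of genes that make, process, cross-link and bind collagen, for 12-month over 2-month KO (red) and 12-month over 2-month WT (blue); filled points are called, open points are not, and bars are list medians. Fibril partners have a median of 0.58 in KO and -0.51 in WT, and lysyl oxidases of 0.17 in KO and -0.69 in WT.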

How the data were processed

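The 44 collagen genes are the names of the pattern given above in the single deposited table, and the genes and lists were chosen with earlier results of these data known. Per the labels' protocols, RNA was extracted with PicoPure and libraries were made with a stranded total RNA kit. Per the submitters' processing notes, TopHat2 2.1.0, Bowtie2 2.2.4, SAMtools 0.1.18, HTSeq 0.6.1p1 and mm10 were used, while the annotation is not given in the sources used here, nor is the strand setting. Per the file headers, the deposited values are a per-gene signal, counts per 1000000 reads (CPM) scaled with the trimmed mean of M-values (TMM) of edgeR.

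Whole reads could be recovered from the deposited CPM within 0.1 read in 100% of values. The unit is a normalized one, so the test was limma 3.58.1 (R 4.3.3, intensity trend, moderated tests) on log2(CPM + 0.5). It covered the 13961 genes that averaged 0.5 CPM or more. One model of 4 group means was fitted over all libraries, with 8 residual degrees of freedom, and p-values were Benjamini-Hochberg adjusted over all genes within each of 5 comparisons. The column totals of the deposited CPM differ, and TMM recomputed over the 12 libraries changes the mean log2 library size by -0.0255 in 12-month KO and -0.0037 in 12-month WT, and at 2 months by -0.0296 in KO and 0.0588 in WT. edgeR 4.0.16 and DESeq2 1.42.0 on the recovered reads were alternatives. edgeR called 4640 genes higher and 4693 lower with age in KO and 4464 higher and 5308 lower between genotypes at 12 months. The fit was tested on simulated data first. Lengths and GC content are those of the longest GENCODE transcript, which all 44 genes matched, and GC was available for 94.3% of tested genes. The labels pair no libraries by replicate number, the model used no pairing, and replicates differed by more than sampling noise. Genes were given per library where the mean reached 50 CPM, where a change was among the 3 largest called in a comparison or where a gene moved against its class. Of the other lists, up to 4 called genes a comparison with the smallest p could be named, besides Serpinh1, P4hb, Lox and Bmp1. Col21a1 was not analysed here.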

Additional observations from a re-analysis of the deposited data

Results flagged for a closer look

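The age effect (12 over 2 months) of 23 collagen genes differed between genotypes by the test of the difference itself, with limma and an adjusted p under 0.05, against 57.7% of all genes. The values are log2 differences, the age effect in KO minus the age effect in WT.

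The difference was positive for 6 genes. It was 2.96 for Col19a1, 1.74 for Col23a1, 1.27 for Col6a3, 0.81 for Col13a1, 0.79 for Col6a1 and 0.69 for Col6a2. Col23a1 and Col6a3 were highest in 12-month KO, and the other 4 were lowest in 12-month WT.

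The difference was negative for 17 genes. The network and fibril-coating chains that stood high in 12-month WT had -2.91 for Col4a6, -2.6 for Col9a3, -2.33 for Col9a2 and -1.73 for Col4a5. Col14a1 had -2.63, Col7a1 -1.55, Col27a1 -1.5 and Col11a1 -1.09, and these 4 were highest in 2-month KO. The short chains had -0.98 for Col8a2, -0.92 for Col8a1 and -0.58 for Col10a1. Of the abundant fibrillar chains, Col1a1 had -0.65, Col3a1 -0.61 and Col5a3 -0.57. The smallest differences were -0.44 for Col28a1, -0.35 for Col15a1 and -0.31 for Col12a1.

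Col8a2 passed the filter on low values only through 12-month WT, so that its difference is a description.

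The calls of Col15a1, Col12a1, Col13a1 and Col10a1 were lost without some single library, and that of Col6a2 with quantile normalization. That of Col15a1 was also lost with the GC trend removed (-0.17) and without both first libraries, of 2-month WT and 12-month KO (-0.23), and that of Col13a1 with total-count scaling (0.60). Sizes moved by over 1.5 times in several cases. With the GC trend removed the difference of Col5a3 was -0.17 and that of Col1a1 -0.39, and without both first libraries they were -0.32 each. With total-count scaling it was -0.86 for Col5a3, -0.64 for Col15a1, -0.60 for Col12a1 and -0.72 for Col28a1, and 0.497 for Col6a1 and 0.40 for Col6a2. With quantile normalization it was -1.15 for Col3a1, -1.07 for Col5a3, -0.61 for Col15a1, -0.56 for Col12a1, -0.28 for Col28a1 and 0.31 for Col6a1. By edgeR on the recovered reads it was -3.58 for Col9a2, -1.58 for Col8a2, -0.92 for Col10a1 and 1.40 for Col13a1.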

How the results depend on the processing

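Over 26 alternatives, 92 of the 123 calls of collagen genes kept their direction and side of the threshold in every alternative run. The 123 calls, and the counts that follow, include Col6a5, Col8a2, Col11a2 and Col20a1, which passed the filter only through their highest group. Their calls are descriptions and no evidence that a result holds. At least 1 alternative lost 10 of 32 calls with age in WT, 9 of 29 between genotypes at 12 months and 3 of 9 at 2 months. With age in KO 4 of 30 calls were lost, and for the difference of the age effects 5 of 23. Leaving out 1 library gave 9 to 10 genes higher and 19 to 20 lower with age in KO, 12 to 15 and 12 to 19 with age in WT, 10 to 12 and 16 to 19 between genotypes at 12 months, 4 to 8 and 2 to 3 at 2 months, and 5 to 8 and 14 to 17 for the difference of the age effects. Counts moved by more than 1.5 times in few settings: 8 higher with age in WT with a filter at 2 CPM, which leaves 30 collagen genes (all genes 2681 higher of 12314), 7 higher at 12 months with total-count scaling, 4 lower at 2 months without a filter, 4 higher with only the groups compared in the fit, 18 higher with the GC trend removed, and, without both first libraries, 5 lower at 2 months and 11 higher for the difference. The last 2 settings were chosen after seeing the data. With the GC trend removed the change at 12 months was reversed for Col5a3 (0.31), Col5a1 (0.31) and Col16a1 (0.41). Without both first libraries that of Col16a1 at 2 months (-0.26) and its difference of age effects (0.28) were reversed. The difference of Col5a2 was reversed with total-count scaling (-0.28) and quantile normalization (-0.27). The main fit called none of these, and each was called with the other sign in the setting named. The cause was not tested. Relative to the deposited scaling, total-count scaling shifted the median of all genes by -0.12 with age in KO, 0.15 with age in WT, -0.18 at 12 months and -0.27 for the difference, and quantile normalization shifted it by 0.11 at 2 months.

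The labels pair no libraries by replicate number. Correlations of same-numbered deviations were 0.089 to 0.589 for replicate 1, -0.163 to 0.082 for replicate 2 and 0.031 to 0.375 for replicate 3. The correlation of deviations with GC content was -0.641 to -0.234 in replicate 1 and 0.215 to 0.475 in replicate 3 of every group. What libraries of the same number share was not tested. With the replicate block 10 genes were higher and 20 lower with age in KO, 14 and 18 with age in WT, 11 and 19 at 12 months, 9 and 2 at 2 months, and 8 and 18 for the difference. Per coding length instead of transcript length, the ratio of Col1a1 to Col1a2 was 0.119 in 12-month WT, that of Col4a1 to Col4a2 2.05 in 12-month KO, 2.43 in 12-month WT and 2.59 in 2-month WT, that of Col6a1 to Col6a2 2.49, 2.32, 2.28 and 2.28 and that of Col6a3 to Col6a1 1.37, 1.07, 0.678 and 0.743 in 12-month KO, 12-month WT, 2-month KO and 2-month WT, and that of Col5a1 to Col5a2 0.147 in 12-month WT. The pseudocount, edgeR or DESeq2 moved 25 called values of 10 genes by over 1.5 times, all of genes with a mean of at most 2.66 CPM. The 10 genes include Col6a5, Col8a2, Col11a2 and Col20a1, which passed the filter only through their highest group. The age change of Col10a1 in WT was 0.71, and 0.37 with a pseudocount of 2, 1.12 by edgeR and 1.11 by DESeq2. Depth limits the scarcest chains, since 3 reads are 0.029 to 0.0859 CPM.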

Other observations

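Other marker lists also differed between groups. Leukocyte markers (7 genes) summed to 107 to 175 CPM in 12-month KO, 196 to 210.0 in 12-month WT and, at 2 months, 227 to 276 in KO and 241 to 299.7 in WT. Adipocyte markers (5 genes) summed to 303 to 312 CPM in 12-month KO, 128 to 153 in 12-month WT and, at 2 months, 161 to 172 in KO and 169 to 182 in WT. Of these 5, only Fabp4 and Adipoq averaged 0.5 CPM or more, and they moved apart. At 12 months Fabp4 was higher in KO than in WT (1.15) and Adipoq lower (-0.34). With age in KO they changed by 0.88 and -0.62. The part of leukocytes and adipocytes in the collagen values was not tested.

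Neighbouring collagen genes did not always share their pattern. Col3a1 and Col5a2 lie tail to tail on chromosome 1, 24623 bases apart. At 12 months Col3a1 was lower in KO than in WT (-0.43) and Col5a2 higher (0.30), both called by limma. The call of Col5a2 was lost with total-count scaling and with quantile normalization. With age both genes were called lower in KO and in WT, by calls that did not all hold, as given above.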
